A study of Mus musculus with 11 samples.

Results

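The interleukin-1 (IL-1) family and the inflammasome were followed through 10 genes in the rectal mucosa of mice with a drug-inducible loss of integrin α6 in intestinal epithelial cells. The genes were taken by name: the cytokines Il1a, Il1b, Il18 and Il33, the antagonists Il1rn and Il18bp, and the inflammasome genes Casp1, Nlrp3, Nlrp6 and Pycard. All 10 were measured, each by 1 transcript cluster of the array, out of 19944 genes in all. Affymetrix Mouse Gene 1.0 ST arrays were used, 1 for each of 11 mice. Mutant mice of the α6ΔIEC-TAM line, in which tamoxifen is meant to delete Itga6, received tamoxifen (mutant tamoxifen, n = 4) or NaCl (mutant NaCl, n = 4), and wild-type controls received tamoxifen (control tamoxifen, n = 3). The drug was given by mouth at 10 mg per day, as 2 doses on alternate days within 5 days, starting at 8 weeks of age. The animals were 10 weeks old at analysis, on day 15 after the first gavage. Each mutant group held 1 male and 3 females, and the control group held 2 males and 1 female. Controls and treated mutants thus share the drug, and both mutant groups share the genotype. The promoter that drives the recombinase is not given in the sources used here.

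IL-1α and IL-1β both act on the IL-1 receptor, and the receptor antagonist encoded by Il1rn occupies that receptor without signalling. IL-1β and IL-18 are made as precursors that are cut by caspase-1, the product of Casp1. Caspase-1 is activated on inflammasomes, in which a sensor such as NLRP3 or NLRP6 recruits the adaptor ASC, the product of Pycard. IL-18 is neutralised by the secreted binding protein of Il18bp, and IL-33 is a nuclear cytokine that is released from damaged epithelial and stromal cells. Cutting, release and binding take place in proteins, so RNA levels do not measure inflammasome activity.

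All levels below are RMA values on the log2 scale, where a difference of 1 is a doubling. Differences come from a limma model over all genes with a term for sex, and a gene was called when its Benjamini-Hochberg adjusted p was under 0.05. Array medians were nearly equal, which the quantile normalisation in RMA brings about. Arrays of the same group correlated at 0.992 to 0.996, and arrays of different groups at 0.984 to 0.996. Intestinal epithelium markers, 10 of 10 outside the lowest 25% of genes, had mean levels of 11.88 to 12.26 in all arrays, and squamous epithelium markers were present as well, at 6.58 to 10.09. Itga6 itself, in the arrays labelled mutant tamoxifen, lay above both reference groups (limma, log2 differences 0.42 and 0.41, adjusted p = 0.00949 and 0.0053). Its array signal therefore does not check the deletion, and the group is named here by its label. It is unknown if the array's Itga6 probes read the exons removed. The p-values reflect how far these 11 animals vary, and so few arrays limit the precision. Since the same 4 mutant tamoxifen arrays enter both comparisons, these are not independent.

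Il1b was the member that differed most, at about 5-fold above control tamoxifen and 4.49-fold above mutant NaCl. Its antagonist Il1rn and the alarmin gene Il33 rose as well, by less, and Nlrp6 fell. Casp1, Pycard, Nlrp3 and Il18 were not called in either comparison. Against control tamoxifen 4 of the 10 members were called, 3 higher and 1 lower, while 24.6% of all genes were called, 12.9% higher and 11.8% lower. Against mutant NaCl 6 members were called, 4 higher and 2 lower, beside 23.2% of all genes, 12.5% higher and 10.7% lower. The median difference of the members was 0.17 against control tamoxifen and 0.13 against mutant NaCl, and that of all genes was -0.02 and -0.01. Values of the groups did not overlap for 5 members in each of these comparisons, where 37.4% and 26.8% of all genes did not overlap. Between the reference groups no member and no gene was called. With female arrays alone, which leaves 1 control array, Il1b was the 1 member called against control tamoxifen, beside 6.94% of all genes.

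The 150 bases before the annotated start of the members that changed in both comparisons are shown, since these genes moved in the same arrays, together with those of Il1a, the other IL-1 receptor ligand. They come from RefSeq, build GRCm38.p6, and run 5′ to 3′ on the gene's strand. Capitals mark matches to short motifs: NF-kB as GGANNTTCC, AP-1 as TGANTCA, C/EBP as TTGCNNAA and the TATA box as TATAAA, each searched on both strands. Of the 3 annotated starts of Il1rn and the 2 of Il33, the one with a match is printed. The other starts of Il1rn and Il33 held no match to any of these motifs. Because of this choice, the printed windows cannot be compared with the shares of all windows given below. The intervals are chr2:129371140-129371289, minus strand (Il1b), chr2:129309973-129310122, minus strand (Il1a), chr2:24336710-24336859, plus strand (Il1rn), chr19:29945640-29945789, plus strand (Il33) and chr7:140920752-140920901, plus strand (Nlrp6).
Il1b: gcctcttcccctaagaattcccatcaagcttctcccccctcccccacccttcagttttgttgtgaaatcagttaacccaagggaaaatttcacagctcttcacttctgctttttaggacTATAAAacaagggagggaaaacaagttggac
Il1a: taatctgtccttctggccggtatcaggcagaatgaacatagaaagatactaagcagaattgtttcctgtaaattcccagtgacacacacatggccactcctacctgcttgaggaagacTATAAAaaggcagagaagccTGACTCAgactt
Il1rn: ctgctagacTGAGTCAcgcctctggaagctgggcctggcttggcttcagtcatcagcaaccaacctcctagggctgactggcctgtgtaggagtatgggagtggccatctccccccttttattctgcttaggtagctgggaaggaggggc
Il33: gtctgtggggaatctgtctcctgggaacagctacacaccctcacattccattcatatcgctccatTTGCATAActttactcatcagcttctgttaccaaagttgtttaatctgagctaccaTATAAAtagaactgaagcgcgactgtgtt
Nlrp6: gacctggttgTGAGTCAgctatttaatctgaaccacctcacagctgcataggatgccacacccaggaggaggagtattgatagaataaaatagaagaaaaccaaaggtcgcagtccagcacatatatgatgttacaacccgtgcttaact

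A TATA box began 31 bases before the start of Il1b, 32 before that of Il1a and 29 before the printed start of Il33. It is found in 7.57% of the 32851 promoter windows of this length in the table. An AP-1 match began 12 bases before the start of Il1a, 141 before that of Il1rn and 140 before that of Nlrp6, a motif held by 4.24% of windows. Il1rn and Nlrp6, which moved in opposite directions, thus carry the same AP-1 letters at almost the same distance. Il33 had a C/EBP match 85 bases before its start (5.46% of windows). Windows not printed here held C/EBP matches as well, 49 bases before the start of Il18bp and 142 before that of Pycard. Of the 14 windows of the 10 members, the NF-kB letters (2.35% of windows) stood in 1, that of an Nlrp3 start not printed here. No matches overlapped, and a match in these letters is not a binding site.

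Il1b encodes IL-1β, the pyrogenic cytokine of neutrophils and macrophages. Its levels in mutant tamoxifen were 9.89, 8.55, 9.57 and 10.01, with a mean of 9.50 ± 0.66 (SD, n = 4). Control tamoxifen arrays read 6.66, 7.37 and 7.46 (mean 7.17 ± 0.44, SD, n = 3), and mutant NaCl arrays 7.53, 7.13, 7.30 and 7.40 (mean 7.34 ± 0.17, SD, n = 4). Every mutant tamoxifen array lay above all 7 others, with replicate 2 the lowest of its group. The log2 difference was 2.32 against control tamoxifen (limma, SE 0.34, 95% confidence interval 1.58 to 3.07, adjusted p = 0.00114). Against mutant NaCl it was 2.17 (limma, SE 0.29, interval 1.52 to 2.81, adjusted p = 0.000684). The reference groups overlapped and differed by 0.16 (interval -0.59 to 0.90, limma adjusted p = 0.921).

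Il1a, the gene of IL-1α, was dim, in the lowest 25% of genes by mean level (under 6.24). Mutant tamoxifen arrays read 6.51, 5.84, 5.61 and 7.51 (mean 6.37 ± 0.85, SD, n = 4), spread over almost 2 log2 units. Control tamoxifen arrays read 5.18, 5.76 and 5.38 (mean 5.44 ± 0.30, SD, n = 3) and mutant NaCl arrays 5.61, 5.46, 5.41 and 5.41 (mean 5.47 ± 0.10, SD, n = 4). Replicates 1 and 4 stood well above all other arrays, and replicate 3 lay within the reference range. Against mutant NaCl the difference of 0.90 was just past the threshold (limma, SE 0.29, interval 0.25 to 1.54, adjusted p = 0.0477). Of 20 alternative settings 13 ended that call, among them leaving out mutant tamoxifen replicate 1, any control tamoxifen array, or mutant NaCl replicate 1, 2 or 3 (adjusted p up to 0.112). Without mutant tamoxifen replicate 4 the difference was 0.54 and still called (limma adjusted p = 0.0296). Against control tamoxifen the difference was 0.71 and not called (limma, interval -0.03 to 1.45, adjusted p = 0.148), and without mutant tamoxifen replicate 4 it was 0.43.

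**Figure D1:**
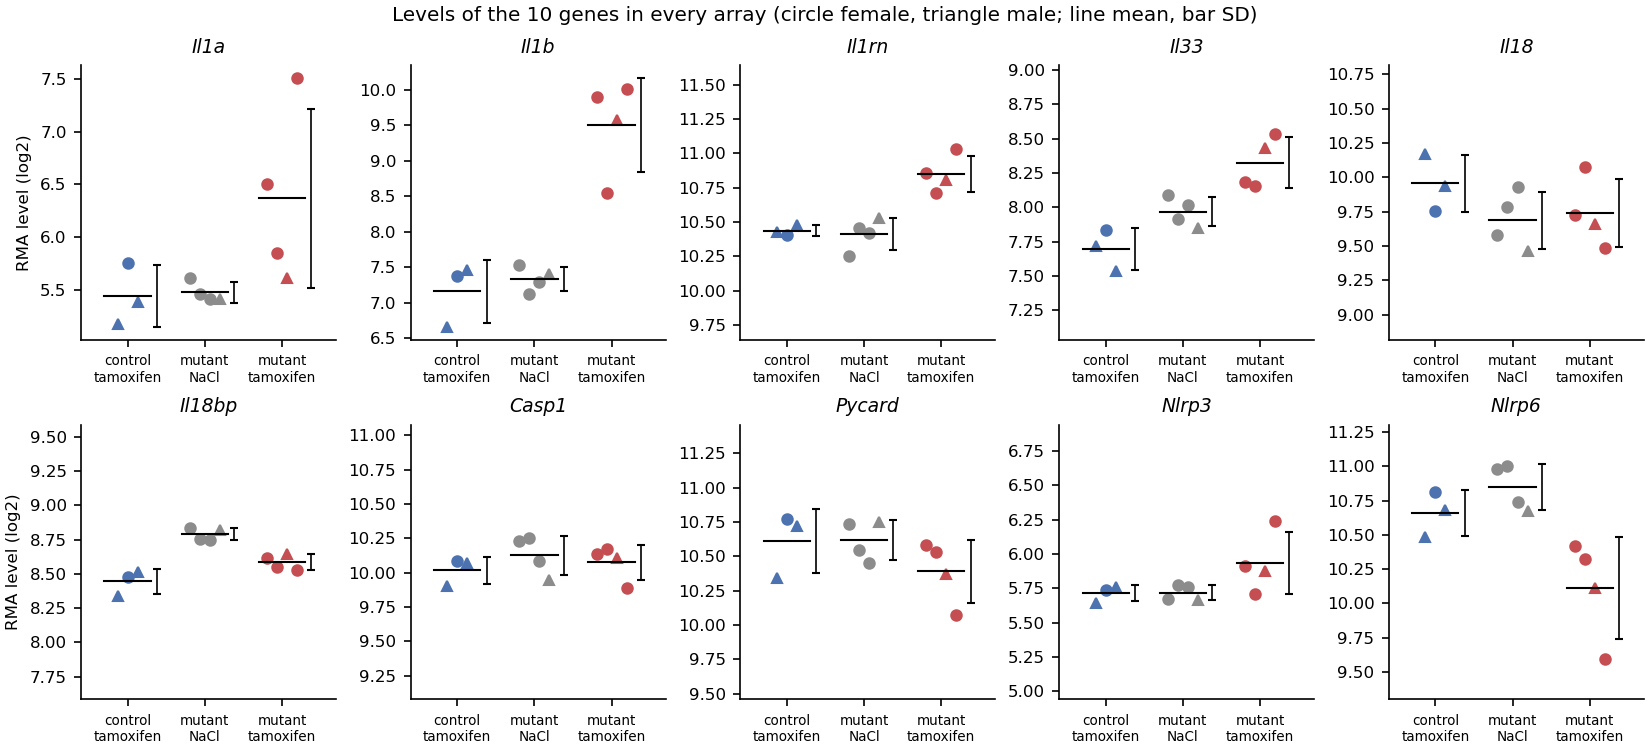
RMA levels (log2) of the 10 genes in control tamoxifen (n = 3), mutant NaCl (n = 4) and mutant tamoxifen (n = 4), with 1 point per array, circles for females, triangles for males, lines for means and bars for SD. Each panel has its own axis. For Il1b, Il1rn and Il33 the mutant tamoxifen arrays lie above all others, and for Nlrp6 below.

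Il1rn, which encodes the IL-1 receptor antagonist, rose by a smaller amount with little spread. Mutant tamoxifen arrays read 10.86, 10.71, 10.80 and 11.03 (mean 10.85 ± 0.13, SD, n = 4). The control tamoxifen arrays lay at 10.42, 10.40 and 10.48 (mean 10.44 ± 0.04, SD, n = 3), and the mutant NaCl arrays at 10.25, 10.45, 10.42 and 10.53 (mean 10.41 ± 0.12, SD, n = 4). All 4 mutant tamoxifen arrays were above all 7 reference arrays. The gene was 1.35-fold higher than in control tamoxifen (limma, log2 difference 0.43, SE 0.09, interval 0.24 to 0.62, adjusted p = 0.00519). The same fold separated it from mutant NaCl (limma, log2 difference 0.44, SE 0.07, interval 0.27 to 0.60, adjusted p = 0.00242).

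Within each array, Il1b was set against Il1rn, to ask whether cytokine and antagonist moved by the same amount. The difference Il1b minus Il1rn was -0.97, -2.16, -1.23 and -1.03 in mutant tamoxifen, -3.77, -3.03 and -3.02 in control tamoxifen, and -2.73, -3.33, -3.12 and -3.13 in mutant NaCl. Because the 2 probe sets differ, only its change between groups has a meaning, and it was 1.93 higher in mutant tamoxifen than in control tamoxifen and 1.73 higher than in mutant NaCl. Both had p = 0.0286 in the exact two-sided permutation test, the smallest p these groups can give, and p = 0.0857 after Benjamini-Hochberg adjustment over 6 such tests. Mutant tamoxifen did not overlap either reference group. The adjusted p could pass 0.05 only if others of the 6 tests also reached their smallest p, so it does not decide the question. Between the reference groups the change was 0.19 (exact permutation p = 0.543).

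**Figure D2:**
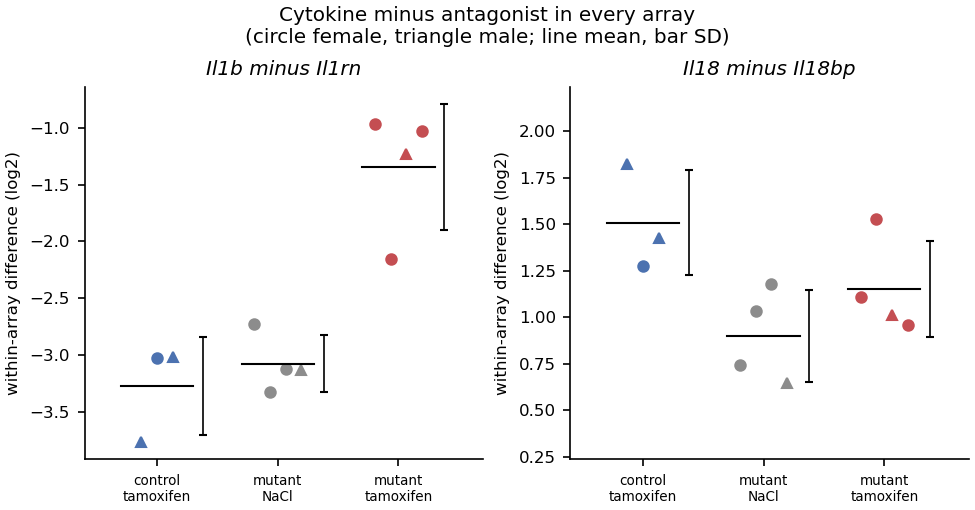
Within-array differences (log2) of Il1b minus Il1rn and of Il18 minus Il18bp, with 1 point per array, circles for females, triangles for males, lines for means and bars for SD. Il1b minus Il1rn runs from -2.16 to -0.97 in mutant tamoxifen and from -3.77 to -2.73 in the other 7 arrays, while for Il18 minus Il18bp mutant tamoxifen overlaps both reference groups.

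Il33 had levels of 8.18, 8.15, 8.43 and 8.53 in mutant tamoxifen (mean 8.33 ± 0.19, SD, n = 4). In control tamoxifen they were 7.71, 7.84 and 7.54 (mean 7.70 ± 0.15, SD, n = 3), and in mutant NaCl 8.09, 7.92, 8.01 and 7.85 (mean 7.97 ± 0.11, SD, n = 4). The 3 groups followed each other without overlap, with mutant NaCl between the other two. Mutant tamoxifen was 1.52-fold above control tamoxifen (limma, log2 difference 0.60, SE 0.11, interval 0.35 to 0.85, adjusted p = 0.00421) and 1.28-fold above mutant NaCl (limma, log2 difference 0.36, SE 0.10, interval 0.14 to 0.58, adjusted p = 0.0251). Mutant NaCl and control tamoxifen differed by 0.24 and did not pass (limma, interval -0.01 to 0.50, adjusted p = 0.628). Leaving out mutant tamoxifen replicate 3 or 4, or mutant NaCl replicate 2 or 4, ended the call against mutant NaCl, with values of 0.28 to 0.33, and so did female arrays alone, at 0.28 (limma adjusted p = 0.126).

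Il18, a cytokine gene of resting intestinal epithelium, was not called. It read 9.73, 10.08, 9.66 and 9.49 in mutant tamoxifen, 10.17, 9.76 and 9.94 in control tamoxifen, and 9.58, 9.78, 9.93 and 9.47 in mutant NaCl, so that all groups overlapped. The difference was -0.24 against control tamoxifen (limma, interval -0.60 to 0.12, adjusted p = 0.317) and 0.05 against mutant NaCl (limma, interval -0.26 to 0.36, adjusted p = 0.847). Differences of Il18 RNA as large as that of Il1b therefore lie outside both intervals. The value against control tamoxifen was -0.47 without control replicate 2 and -0.14 without control replicate 1, and that against mutant NaCl ran from -0.06 to 0.14 as single arrays were left out. With female arrays alone, which leaves 1 control array, the value against control tamoxifen was 0.01.

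Il18bp, whose product holds IL-18 inactive, had another order, with mutant NaCl highest. The levels were 8.62, 8.55, 8.65 and 8.53 in mutant tamoxifen (mean 8.59 ± 0.06, SD, n = 4), 8.34, 8.48 and 8.52 in control tamoxifen (mean 8.45 ± 0.09, SD, n = 3), and 8.83, 8.75, 8.75 and 8.82 in mutant NaCl (mean 8.79 ± 0.04, SD, n = 4). No 2 groups overlapped. The gene fell by 0.20 against mutant NaCl (limma, SE 0.06, interval -0.33 to -0.08, adjusted p = 0.0238), a call lost without mutant tamoxifen replicate 2 or 4 or mutant NaCl replicate 1 or 4, at -0.20 to -0.18. Against control tamoxifen the difference was 0.15 and not called (limma, interval 0.01 to 0.29, adjusted p = 0.115). Il18 minus Il18bp differed by -0.36 from control tamoxifen and by 0.25 from mutant NaCl (exact permutation p = 0.143 and 0.257). Its largest change was between the reference groups, -0.61 in mutant NaCl minus control tamoxifen without overlap (exact permutation p = 0.0571, adjusted p = 0.114 over the 6 tests).

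The inflammasome genes did not move as a block. Nlrp6, a sensor made by intestinal epithelial cells, fell. It read 10.42, 10.33, 10.11 and 9.59 in mutant tamoxifen (mean 10.11 ± 0.37, SD, n = 4), 10.48, 10.81 and 10.68 in control tamoxifen (mean 10.66 ± 0.17, SD, n = 3), and 10.98, 10.999, 10.74 and 10.67 in mutant NaCl (mean 10.85 ± 0.17, SD, n = 4). All 4 mutant tamoxifen arrays lay below all others, with replicate 1 close to the lowest control array. Nlrp6 was 1.53-fold lower than in control tamoxifen (limma, log2 difference -0.61, SE 0.18, interval -1.01 to -0.21, adjusted p = 0.0314). It was 1.67-fold lower than in mutant NaCl (limma, log2 difference -0.74, SE 0.16, interval -1.08 to -0.39, adjusted p = 0.00721). The call against control tamoxifen was lost without mutant tamoxifen replicate 3 (-0.70), control tamoxifen replicate 2 (-0.56) or 3 (-0.58), or mutant NaCl replicate 4 (-0.59), and that against mutant NaCl held in all 22 alternatives.

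Nlrp3, the sensor best known from myeloid cells, was dim in all groups, like Il1a in the lowest 25% of genes. Mutant tamoxifen arrays read 5.91, 5.71, 5.88 and 6.24, and the 7 others 5.65 to 5.77. Neither difference was called, at 0.19 against control tamoxifen (limma, interval -0.04 to 0.43, adjusted p = 0.204) and 0.22 against mutant NaCl (limma, interval 0.02 to 0.42, adjusted p = 0.115). Without mutant tamoxifen replicate 2, the lowest of its group, the latter was 0.30 and called (limma adjusted p = 0.0219), and in the other 19 alternatives it was not. Without replicate 4, the highest, the differences were 0.11 against control tamoxifen and 0.12 against mutant NaCl.

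Casp1 lay between 9.89 and 10.25 in all 11 arrays, and the groups overlapped. Its differences were 0.02 against control tamoxifen (limma, interval -0.19 to 0.22, adjusted p = 0.917) and -0.05 against mutant NaCl (limma, interval -0.23 to 0.12, adjusted p = 0.708). Casp1 RNA therefore had narrower intervals than Il18 or Pycard. Pycard read 10.58, 10.53, 10.37 and 10.08 in mutant tamoxifen and 10.34 to 10.77 in the reference arrays, which overlap. Its difference was -0.23 in each comparison (limma, adjusted p = 0.291 against control tamoxifen and 0.243 against mutant NaCl), with intervals from -0.56 to 0.10 and from -0.52 to 0.06. Single arrays moved these values: without mutant tamoxifen replicate 4 they were -0.14 and -0.12. Against control tamoxifen the value was -0.34 without control replicate 1 and -0.08 without control replicate 2, and against mutant NaCl it was -0.15 without mutant NaCl replicate 4.

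**Figure D3:**
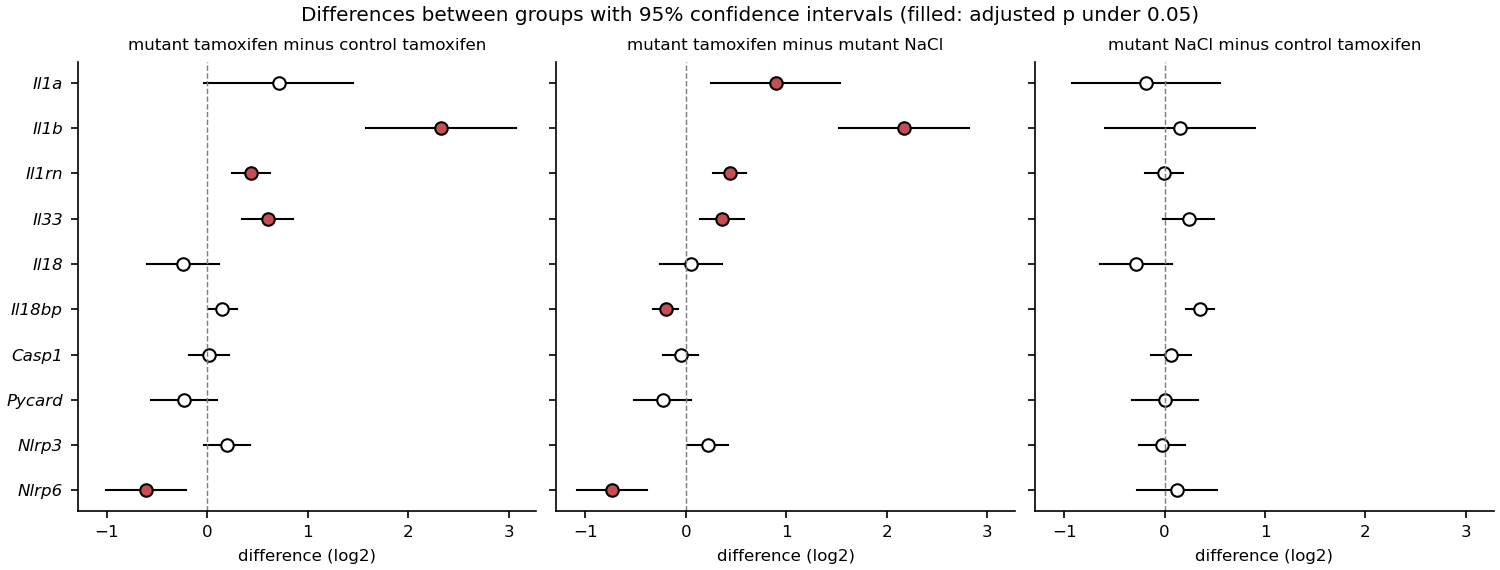
Log2 differences of the 10 genes (points) with 95% confidence intervals (lines) in the 3 comparisons, filled where the limma adjusted p over all genes was under 0.05. Il1b stands at 2.32 and 2.17 in the first 2 panels, Casp1 at 0.02 and -0.05, and no point is filled for mutant NaCl minus control tamoxifen.

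One mutant tamoxifen animal stood at the end of its group throughout. Replicate 4 held the group's highest level of Il1a, Il1b, Il1rn, Il33 and Nlrp3 and its lowest level of Il18, Il18bp, Casp1, Nlrp6 and Pycard, an extreme for all 10 members. Replicate 2 was the lowest for Il1b, Il1rn, Il33 and Nlrp3. The mean level of neutrophil markers in these arrays had the same ends, 7.55 in replicate 4 and 7.19 in replicate 2. Without replicate 4 the differences from control tamoxifen were 2.19 for Il1b, 0.38 for Il1rn, 0.55 for Il33 and -0.46 for Nlrp6, all still called (limma, adjusted p = 0.0022, 0.0051, 0.007 and 0.00452).

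The reference groups differ in both genotype and drug, which cannot be told apart there. Between mutant NaCl and control tamoxifen no member was called, and 0% of all genes were, while 1625 genes, 8.15%, had an unadjusted p under 0.05. Of the members that was 1, Il18bp, 1.28-fold higher in mutant NaCl (limma, log2 difference 0.35, SE 0.06, interval 0.21 to 0.49, adjusted p = 0.399). Il18bp and Il33 were the 2 members whose values did not overlap, beside 8.14% of all genes. Sex was not called for any member, the largest difference being that of Il1a, 0.53 lower in males (limma, SE 0.28, adjusted p = 0.851).

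For cells other than epithelium, the mean level of neutrophil markers moved with Il1b, though not every marker did. The mean was 7.19 to 7.55 in mutant tamoxifen and 6.61 to 6.83 in the other groups. Of 15 markers 11 were higher in each comparison, with median differences of 0.63 and 0.77. The largest difference was that of Ltf, at 2.31 and 1.82, beside 2.32 and 2.17 for Il1b. The lowest were Elane against control tamoxifen (-0.09) and Mpo against mutant NaCl (-0.06). Ly6g had means of 13.27 in mutant tamoxifen, 13.19 in control tamoxifen and 13.21 in mutant NaCl, and Camp of 6.68, 6.67 and 6.68. In every group Ly6g lay far above 9.46, the bound of the highest 25% of genes. Whether its cluster reads neutrophil RNA alone was not tested. Of the 15 markers 6, such as Retnlg and Mmp8, were in the lowest 25% of genes. Macrophage and dendritic cell markers lay at 8.68 to 8.81 in mutant tamoxifen and 8.72 to 9.03 elsewhere, with 1 higher and 4 lower of 15 against control tamoxifen and 1 higher and 1 lower against mutant NaCl. The higher one was Cd14, a receptor chain for bacterial lipopolysaccharide, in both comparisons (limma, log2 differences 0.82 and 0.64, adjusted p = 0.000541 and 0.000769). The list's medians were -0.17 and -0.16, with Cd68 lowest against control tamoxifen at -0.61 and Cd209a lowest against mutant NaCl at -0.43. Mast cell markers had mean levels of 6.77 to 7.34 in mutant tamoxifen and 6.15 to 6.87 elsewhere, with 3 of 8 higher against control tamoxifen and 2 of 8 against mutant NaCl. Mcpt2, a protease of mucosal mast cells, had the largest difference, at 2.06 and 1.58, and was called only against control tamoxifen (limma, adjusted p = 0.0373 and 0.062). At the other end of this list were Mrgprb1 against control tamoxifen (-0.03) and Ms4a2 against mutant NaCl (-0.05). Ms4a2, Fcer1a and Mrgprb1, 3 of the 8, were in the lowest 25% of genes. In a bulk sample, fewer cells of a type and less RNA per cell cannot be told apart, and the part of neutrophils or mast cells in the members' differences was not tested.

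Squamous epithelium, which expresses Il1a, Il1rn, Il18 and Il33, varied widely in amount. The mean of its 14 markers ran from 6.58 to 10.09 in control tamoxifen, 8.76 to 10.01 in mutant NaCl and 8.22 to 10.06 in mutant tamoxifen, and no marker was called. That mean was also fitted as a further term. The members called against control tamoxifen then differed from it by 2.23 (Il1b), 0.43 (Il1rn), 0.63 (Il33) and -0.70 (Nlrp6). All were called (limma, adjusted p = 0.00368, 0.0146, 0.00818 and 0.0311), while Il1a and Il18 were not called against control tamoxifen in this fit. The fit does not measure the part of squamous tissue in the members' differences, which was not tested. Beside Nlrp6, absorptive colonocyte markers had mean levels of 10.98 to 11.08 in mutant tamoxifen and 11.71 to 12.02 in the others. Of 10 such markers 7 were lower and 1 higher against control tamoxifen, and 8 lower and 1 higher against mutant NaCl. They ran from Cyp2c55, a cytochrome P450, at -4.43 and -3.06 to the water channel gene Aqp4 at 1.40 and 1.90, all called (limma, adjusted p = 1.01e-05, 2.81e-05, 0.00529 and 0.00049), with medians of -0.60 and -0.78. All 11 smooth muscle markers were lower in both comparisons, with means of 11.52 to 11.66 against 11.94 to 12.22, while intestinal epithelium markers were 12.10 to 12.26 against 11.88 to 12.01. The part of these shifts in the members' differences was not tested.

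**Figure D4:**
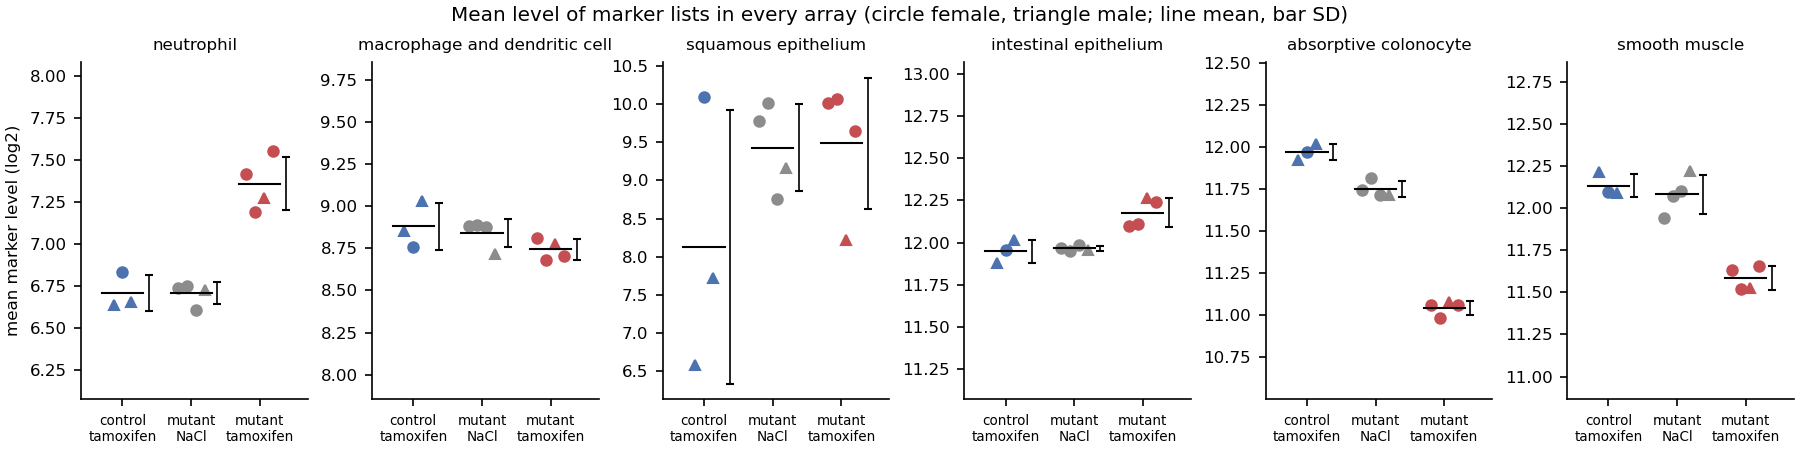
Mean log2 level of 6 lists of marker genes in every array, with 1 point per array, circles for females, triangles for males, lines for means and bars for SD. Neutrophil markers are higher in mutant tamoxifen (7.19 to 7.55 against 6.61 to 6.83), absorptive colonocyte and smooth muscle markers are lower, and squamous markers spread from 6.58 to 10.09.

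Of 79 further genes of the pathway 70 were measured, and 22 were higher and 2 lower in mutant tamoxifen than in control tamoxifen (median 0.10). Against mutant NaCl 21 were higher and 1 lower (median 0.10). The shares of all genes were 12.9% higher and 11.8% lower, and 12.5% and 10.7%. In either direction the background was 24.6% and 23.2%. The counts of receptors, of sensors, of caspases, of the other ligands and of IL-33 and IL-18 targets given below are near or under it. With control tamoxifen and mutant NaCl compared, none was called. Among 6 receptors, Il1r2, the decoy receptor that binds IL-1β without signalling, rose in both comparisons. It read 7.92, 7.66, 7.52 and 7.94 in mutant tamoxifen, 6.62 to 7.05 in control tamoxifen and 6.58 to 7.07 in mutant NaCl, without overlap (limma, log2 differences 0.78 and 0.99, adjusted p = 0.00127 and 0.000142). Il18rap, a chain of the IL-18 receptor, rose against mutant NaCl (limma, log2 difference 0.31, adjusted p = 0.0215). None of the 5 other ligands of the family, Il1f10 and the IL-36 genes Il1f5, Il1f6, Il1f8 and Il1f9, was called in either comparison. Il1f9, which encodes IL-36γ, came closest against mutant NaCl, at 0.68 (limma, adjusted p = 0.104). Control tamoxifen replicate 2, the array with the highest squamous marker mean (10.09), read 9.68 for Il1f5, 9.25 for Il1f6 and 8.44 for Il1f9. Replicates 1 and 3 read 6.11 to 6.58 for these genes. Against control tamoxifen their limma intervals were, in this order, -1.88 to 0.71, -1.12 to 0.79 and -0.45 to 0.96. The missing calls of these genes therefore do not show that their RNA was unchanged. The part of squamous tissue was not tested.

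Of 10 other sensor genes, Mefv, which encodes pyrin, and Nek7, the kinase that binds NLRP3, rose in both comparisons. The differences were 0.23 and 0.17 for Mefv and 0.36 and 0.23 for Nek7 (limma, adjusted p = 0.00778, 0.0196, 0.0121 and 0.0441). Nlrp10 fell against control tamoxifen (limma, log2 difference -0.34, adjusted p = 0.0429), and against mutant NaCl it read -0.19 (limma, adjusted p = 0.186). Nlrp1b was called in neither comparison, with means of 6.77 in mutant tamoxifen, 7.42 in control tamoxifen and 6.54 in mutant NaCl. Within mutant NaCl, replicate 1 read 7.44 and the others 6.13 to 6.31. Of 8 caspase, gasdermin and pyroptosis genes 1 was called, Casp8, a caspase of the death receptor pathway (limma, log2 differences 0.41 and 0.20, adjusted p = 0.00257 and 0.0388). Gsdmd, the pore-forming target of caspase-1, differed by 0.07 and 0.18 and did not pass (limma, adjusted p = 0.504 and 0.0623).

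In the signalling chain behind the IL-1 receptors, 4 of 12 genes were higher and 1 lower against control tamoxifen, and 3 higher and 1 lower against mutant NaCl. The lower one was Irak2, a receptor-associated kinase, at 9.38, 9.30, 9.41 and 9.13 in mutant tamoxifen and 9.73 to 10.00 in the 7 other arrays (limma, log2 differences -0.62 and -0.53, adjusted p = 0.000607 and 0.000529). Myd88, the shared adaptor, rose by 0.34 and 0.29 (limma, adjusted p = 0.0117 and 0.0128). Genes that IL-1 and NF-kB are known to induce had the largest differences of the wider list, with 10 of 19 higher and 0 lower in each comparison (medians 0.40 and 0.31). Saa3, a serum amyloid A, led at 2.32 and 2.54, followed by Cxcl5, a neutrophil chemokine, at 2.08 and 1.93 (limma, adjusted p = 2.17e-05 and 4.97e-06, and 0.000113 and 5.22e-05). The metalloproteinase genes Mmp3 and Mmp10 rose by 0.99 and 1.38 against control tamoxifen (limma, adjusted p = 0.000262 and 0.000882). In each comparison 9 of the 19 were not called. Among those called in neither were Nfkbia (0.17 and 0.05), Tnfaip3 (0.05 and -0.08) and Cxcl1 (0.02 and 0.13). Many other pathways induce these genes as well.

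Of 5 measured genes from pathways that prime the inflammasome, 3 were higher in both comparisons. These were Tnf at 0.59 and 0.58, and the receptors for bacterial products Tlr4 at 0.37 and 0.38 and Tlr2 at 0.25 and 0.35 (limma, adjusted p = 0.000882 and 0.000415, 0.00201 and 0.000763, 0.0445 and 0.00545). Il17a and Ifng were called in neither. Of 5 target genes of IL-33 and IL-18, Il5 alone was called, at 0.12 against control tamoxifen with levels under 5 (limma, adjusted p = 0.0358). Against mutant NaCl none was, and Il13, a cytokine of type 2 responses, differed by -0.02 (limma, adjusted p = 0.866).

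**Figure D5:**
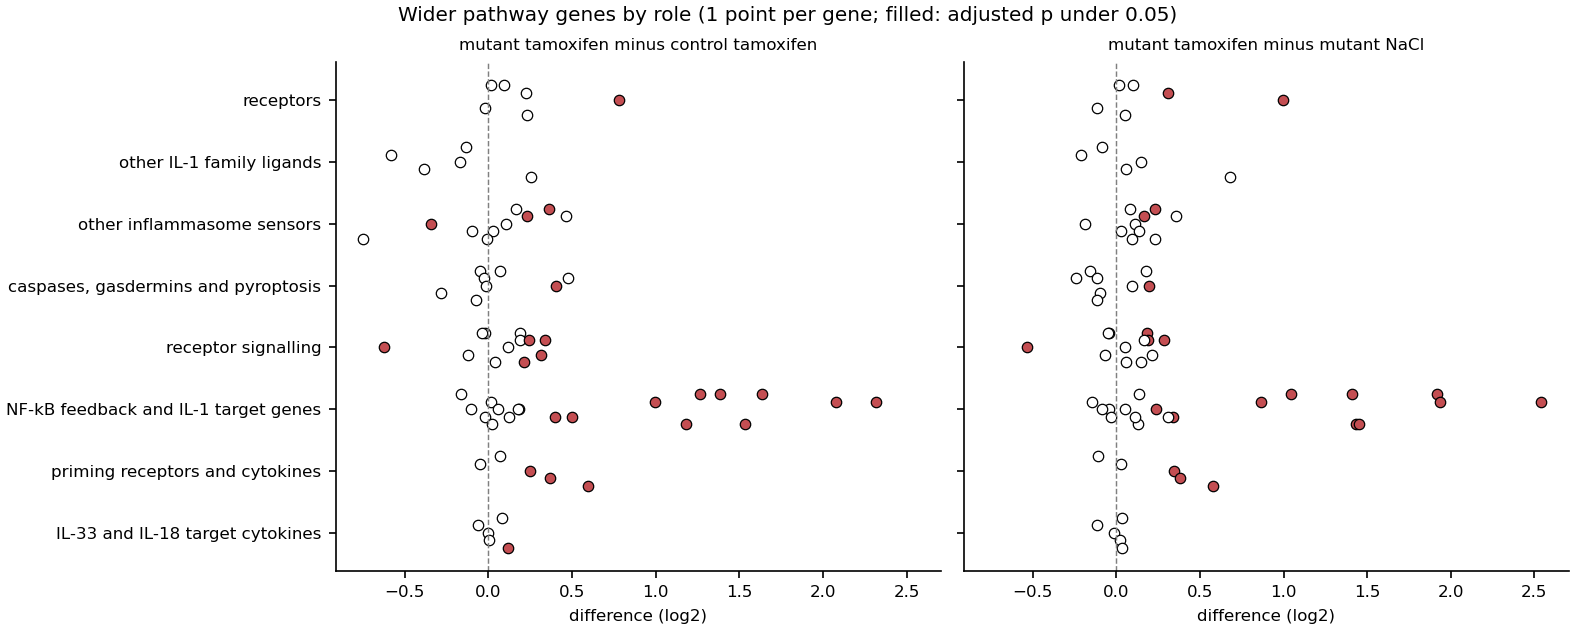
Log2 differences of 70 further pathway genes by role, with 1 point per gene, filled where the limma adjusted p over all genes was under 0.05. Points reach 2.32 and 2.54 (Saa3) among the NF-kB and IL-1 target genes, while the other IL-1 family ligands have no filled point.

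For the 6 members called in at least 1 comparison, the genes with the nearest profile over the 11 arrays were taken, by the root mean square difference of centred log2 levels among 17081 candidates. Such nearness describes these arrays and is no test. Nearest to Il1b were Slc4a11, a membrane transporter gene (0.34), Cxcr2, the neutrophil receptor for CXC chemokines (0.37), and Gcnt4, a glycosyltransferase gene (0.38), where Il1b itself varies by 1.15 about its mean. Nearest to Il1a were Acod1, which makes itaconate in activated macrophages (0.14), Clec4e, a myeloid lectin receptor (0.28), and Alpi, an intestinal alkaline phosphatase (0.29). For Il1rn these were Capn2 (0.06), a calpain, Mex3c (0.06) and Tmtc3 (0.07), and for Il33 they were Tmem62 (0.11), Rab32 (0.12) and Fgfr4 (0.12). Nlrp6 was closest to Pigr, the receptor that carries IgA across the epithelium (0.12), which differed by -0.65 and -0.62, followed by Ly75 (0.13) and Abi3 (0.13). Il18bp was closest to Psme1, an activator of the proteasome (0.08), Klrk1 (0.08) and Uba7 (0.09).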

How the data were processed

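The values are log2 intensities that the authors deposited for each transcript cluster, made with RMA in Affymetrix Expression Console (version 1.1, with Command Console 2.0 for the images), per the labels and the series design text. RMA corrects background, quantile-normalises and summarises probes. Partek appears in the submitters' processing notes with no role. No source used here gives a genome build. Of 35556 transcript clusters, 21797 had 1 gene symbol. The cluster with the highest mean was kept per gene, giving 19944 genes without a filter on dim ones. All 11 arrays entered 1 limma model (version 3.58.1, R 4.3.3) with group and sex, a variance trend and two-sided tests, adjusted over all genes. On simulated data for mutant tamoxifen against control tamoxifen with 19944 genes, 97% of 100 genes shifted by 1 and 79% of 100 shifted by 0.5 were recovered. There 6 unchanged genes were called. Noise was drawn independently for each gene and far fewer genes were shifted than were called in the real data. These rates need not hold for the members. Of the listed pathway genes 4 were matched by a RefSeq synonym. Alternatives dropped the sex term, males, dim genes, the variance trend or 1 array, or changed the normalisation, the cluster rule, the arrays fitted or the covariates. The members, lists and tests were chosen with earlier results of these data known. All members were named, at most 4 genes per role and comparison by smallest p, and the 3 nearest profiles of each called member (no predicted, receptor segment, olfactory, small RNA or sex-linked gene). Some pathway genes that were not called were named besides.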

Additional observations from a re-analysis of the deposited data

How the results depend on the processing

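In the fit of female arrays alone control tamoxifen is 1 array, assumed to vary like the other groups, so that it says little about stability against control tamoxifen. Il1b kept its direction and its call in all 22 alternatives of each comparison with mutant tamoxifen, this one included, at 2.11 to 2.59 against control tamoxifen and 2.00 to 2.50 against mutant NaCl, and Il1rn did so except against control tamoxifen with female arrays alone (0.46, adjusted p = 0.0753). With female arrays alone 1 member, Il1b, was called against control tamoxifen, beside 6.94% of all genes. Leaving out 1 array at a time gave 3 to 4 called members against control tamoxifen, 4 to 6 against mutant NaCl and 0 to 0 between the reference groups. Il1b minus Il1rn then ranged over 1.68 to 2.20, 1.60 to 2.00 and -0.05 to 0.32, and Il18 minus Il18bp over -0.48 to -0.20, 0.13 to 0.34 and -0.72 to -0.45. Over all members and comparisons a call was lost 30 times, most often for Il1a and never for Il1b, gained 1 time (Nlrp3), and no called value changed sign. With the lowest 25% or 50% of genes left out, Il1a and Nlrp3 have no value. Against control tamoxifen with female arrays alone, Il33 was 0.45 and Nlrp6 -0.70, and with the 2 compared groups alone Nlrp6 was -0.59, none of them called. For single members the cause of a lost call was not tested. No paired analysis was possible because the labels give no replicate numbers shared between groups.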
